A study of Mus musculus with 11 samples.

Results

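Expression of 37 genes of sterol and fatty acid metabolism was followed in mouse monocytes driven toward Langerhans-like cells in culture. The genes were chosen by symbol for their known roles, with no cut on their values. They are 18 enzymes of sterol synthesis (Acat2, Hmgcs1, Mvk, Pmvk, Mvd, Idi1, Fdps, Fdft1, Sqle, Lss, Cyp51, Tm7sf2, Msmo1, Nsdhl, Hsd17b7, Ebp, Sc5d and Dhcr7), 4 genes of the SREBP system (Srebf1, Srebf2, Insig1 and Scap), 4 genes of sterol transport and storage (Stard4, Npc1, Npc2 and Soat1), 5 enzymes of fatty acid synthesis (Fasn, Acaca, Scd1, Scd2 and Elovl6), the LXR receptors Nr1h3 and Nr1h2, and 4 genes that LXR drives (Abca1, Abcg1, Mylip and Apoe). All 37 were found among the 21860 genes of the expression table, and all 37 were among the 13095 genes that passed the filter on low values and were tested.

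RNA was sequenced in bulk from 11 samples of CD11b-low EpCAM+ cells, which were sorted on day 6 from cultures of bone marrow monocytes. The study's methods name C57BL/6 mice, of both sexes for such cultures, and no age is given for them. GM-CSF (20 ng/ml), a growth and survival factor of monocytes, was given to all cultures. TGFβ (5 ng/ml) and IL-34 (8 µg/ml), cytokines on which Langerhans cells depend, were given in every group but the first. Beside Jag1 only (n = 1), cultures had TGFβ/IL-34 alone (n = 2) or these cytokines with FICZ (n = 2), with Jag1 (n = 3) or with both (n = 3), and the last 3 are called the FICZ, Jag1 and Jag1/FICZ groups. Jagged-1 (Jag1) is a Notch ligand and was presented by OP9-Jag1 cells, a mouse stromal line, so the effect of Jag1 cannot be told apart from that of the stromal cells unless the other cultures held OP9 cells too. The labels put OP9 cells in all 11 samples, whereas Col1a1 and Col1a2, collagen genes of stromal cells, stood at 0 to 3.84 normalized counts in the 4 samples without Jag1 and at 37.4 to 1345 in the 7 with it. FICZ is a ligand of the aryl hydrocarbon receptor (Ahr), and the Ahr target Cyp1a1 stood at 604 to 2079 normalized counts in the 5 FICZ samples against 0 to 100.1 in the other 6. Other Ahr targets did not follow FICZ alone. A list of 5, with Cyp1a1, summed to 9579 to 9832 in TGFβ/IL-34 and 12408 to 18404 in the FICZ group. The sums were 2973 to 4162 in the Jag1 group, 10424 to 11571 in the Jag1/FICZ group and 1912 in Jag1 only. All 5 were called lower in the Jag1 group than in TGFβ/IL-34. Epcam, the gene of the sorting marker, was at 657 normalized counts in Jag1 only and at 3952 to 14377 in the other samples, and Cd207, which encodes langerin, was at 1366 to 1784 in the Jag1 group and at 6.21 to 157 elsewhere.

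Cholesterol is made from acetyl-CoA through mevalonate, isoprenoids, squalene and lanosterol, and the genes of this route are switched on together by the transcription factor SREBP2. SREBP is held in the endoplasmic reticulum by SCAP and INSIG while sterol is plentiful and is released when sterol falls, and SREBP1 acts in the same manner on fatty acid genes. For cholesterol, though not for fatty acid genes, the LXR receptors work in the opposite sense: they sense oxidised sterols and induce genes that export cholesterol from macrophages, such as Abca1 and Abcg1. Mylip, also induced by LXR, encodes a ligase that marks lipoprotein receptors for degradation, and Apoe encodes an apolipoprotein that accepts exported cholesterol.

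Promoter sequence was compared over the windows of RefSeq (GRCm38.p6, 250 bases before to 50 after a start), which held 29 of the 37 genes. The NF-Y box, CCAAT on either strand, which often lies next to SREBP sites, was in 21 of these 29 genes (72.4%) and in 41.1% of all genes with a window. A sterol response element written as TCACNCCAC was found in Hmgcs1 alone (3.45% of the 29 genes, 1.44% of all genes), and its shorter core CACNCCAC in 3 genes (10.3%, against 7.12%), which were Acat2, Hmgcs1 and Insig1. The E-box CACGTG was in 6 genes (20.7%, against 8.09%) and the Ahr motif TNGCGTG in Acat2 and Insig1 (6.90%, against 5.84%). The LXR element, searched only as an exact AGGTCA repeated after 4 bases, was in none of these windows and in 0.0148% of all genes (4 of 27025). Variants of it were not searched or put in capitals below. A form this rare cannot show whether a promoter, such as that of Abca1, holds an LXR element. These are matches of letters only, and all genes with a window were not limited to the genes tested here, so the shares are not of like sets. The 200 bases before the RefSeq start are shown, with the motifs above in capitals on either strand (ATTGG is the reverse complement of CCAAT). They are given for 4 genes that SREBP is known to drive, for Mylip and Abca1 from the LXR side, and for Pmvk, whose level is described further on. Gene positions further on are from GENCODE, whose starts differ from these. By GENCODE the Fasn stretch lies wholly inside the gene (chr11:120696672-120715995, minus strand). Those of Insig1, Idi1 and Pmvk run well past the gene starts at 28276315, 8935537 and 89361758. In the Insig1 sequence the last capitals hold the core CACNCCAC on the minus strand, which shares letters with an Ahr motif on the plus strand. Each sequence was placed on GRCm39 by exact match: Hmgcs1 at chr13:120151687-120151886 (plus strand), Insig1 at chr5:28276210-28276409 (plus), Idi1 at chr13:8935442-8935641 (plus), Fasn at chr11:120715374-120715573 (minus), Mylip at chr13:45543018-45543217 (plus), Abca1 at chr4:53159896-53160095 (minus) and Pmvk at chr3:89361648-89361847 (plus).
Hmgcs1: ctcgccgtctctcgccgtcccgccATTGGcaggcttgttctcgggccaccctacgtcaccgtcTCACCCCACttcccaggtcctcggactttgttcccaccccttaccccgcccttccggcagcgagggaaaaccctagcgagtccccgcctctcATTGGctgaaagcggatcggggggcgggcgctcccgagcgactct
Insig1: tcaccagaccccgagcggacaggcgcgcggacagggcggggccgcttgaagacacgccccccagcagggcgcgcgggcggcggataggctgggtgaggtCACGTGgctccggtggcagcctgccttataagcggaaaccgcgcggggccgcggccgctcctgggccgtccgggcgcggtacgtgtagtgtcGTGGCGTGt
Idi1: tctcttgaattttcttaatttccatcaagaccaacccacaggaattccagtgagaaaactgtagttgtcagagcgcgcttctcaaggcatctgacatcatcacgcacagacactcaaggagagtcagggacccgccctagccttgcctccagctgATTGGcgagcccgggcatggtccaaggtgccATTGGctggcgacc
Fasn: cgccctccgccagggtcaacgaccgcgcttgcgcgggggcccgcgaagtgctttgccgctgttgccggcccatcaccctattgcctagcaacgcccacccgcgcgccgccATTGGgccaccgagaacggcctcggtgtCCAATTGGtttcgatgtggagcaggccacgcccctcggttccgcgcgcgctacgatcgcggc
Mylip: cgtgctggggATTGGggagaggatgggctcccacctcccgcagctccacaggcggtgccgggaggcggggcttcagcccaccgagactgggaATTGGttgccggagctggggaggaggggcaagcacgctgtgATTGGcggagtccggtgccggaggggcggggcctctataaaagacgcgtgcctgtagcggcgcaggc
Abca1: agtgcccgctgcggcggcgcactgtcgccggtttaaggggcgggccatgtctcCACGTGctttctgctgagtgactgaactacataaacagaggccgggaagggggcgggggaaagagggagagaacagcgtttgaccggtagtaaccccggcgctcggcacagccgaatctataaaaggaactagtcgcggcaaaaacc
Pmvk: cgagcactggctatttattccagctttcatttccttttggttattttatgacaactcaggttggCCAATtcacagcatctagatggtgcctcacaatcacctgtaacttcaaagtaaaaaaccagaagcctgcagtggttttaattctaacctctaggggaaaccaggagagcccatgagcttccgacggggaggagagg

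Of the 11 libraries, FICZ replicate 1 stood apart. The deposited values summed to 21.3 to 27.8 M per sample, with the highest sum in that library, and low values put 1 read at 0.892 to 1.15 normalized counts. After each gene was centred on its mean over the 11 samples, the median of genes with the longest transcripts (5924.5 bases or more) minus that of genes with the shortest (2976 bases or fewer) was -1.19 on the log2 scale in FICZ replicate 1, and the same difference was -0.0067 to 0.193 in the other 10 libraries. The 2 FICZ replicates lay more than 2-fold apart in 20 of the 37 sterol and fatty acid genes, against 34.8% of all genes tested. The log2 difference of replicate 1 from replicate 2 was -2.64 for Acaca, the enzyme that makes malonyl-CoA, and 2.08 for Apoe, and replicate 1 held the lowest value of all 11 samples for 16 of the 37 genes. Results that use this library, or the spread to which it adds, are therefore given with and without it. Library and condition cannot be told apart here, because replicate 2 is then the only sample of its group.

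**Figure D1:**
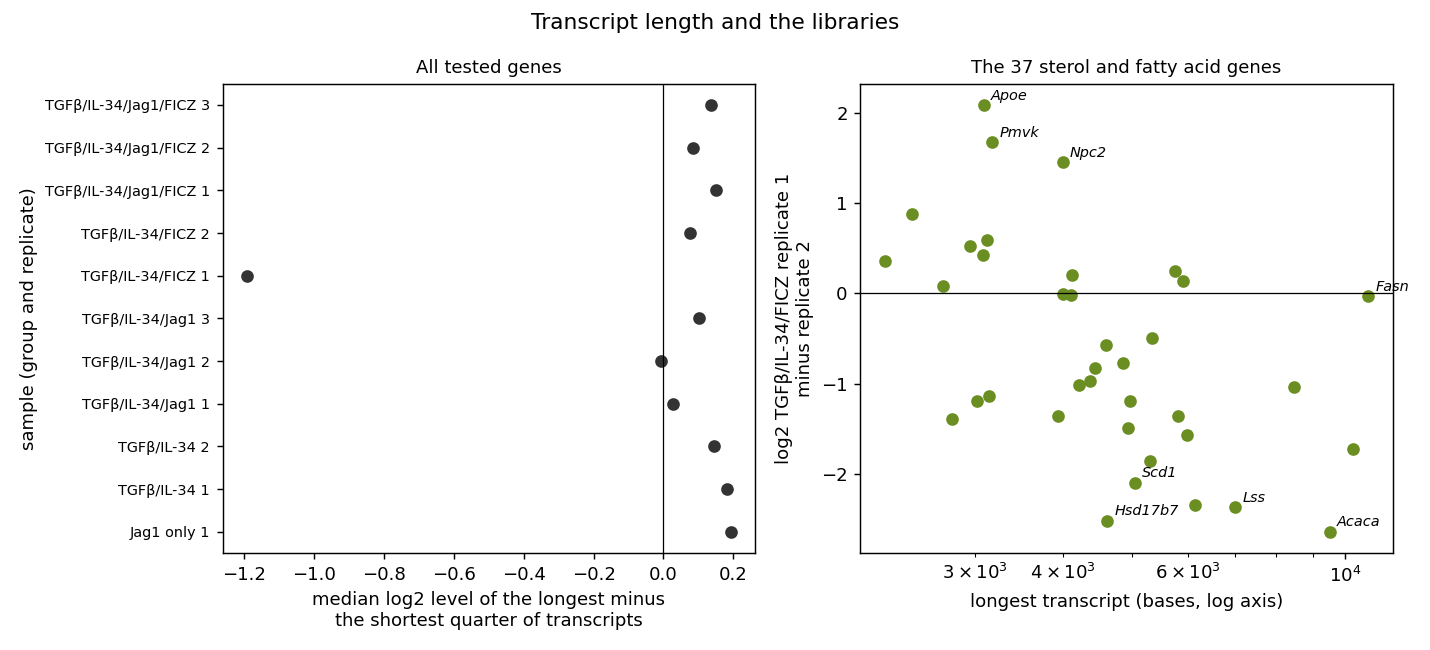
Left, median log2 level of genes with transcripts of 5924.5 bases or more minus that of genes with 2976 bases or fewer, each gene centred on its mean over the 11 samples (x axis), for each sample (y axis). Right, log2 difference between the FICZ replicates (y axis) against the longest annotated transcript in bases (x axis, log scale) for the 37 genes, 1 point per gene. FICZ replicate 1 lies at -1.19 on the left and apart from the other 10 samples, and 20 of the 37 genes lie more than 1 log2 unit from 0 on the right.

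The enzymes and the LXR-driven genes were first summarised by sample against the mean of TGFβ/IL-34. The median log2 difference of the 18 sterol enzymes from the mean of TGFβ/IL-34 was -0.575 in Jag1 only, -0.0623 and 0.37 in FICZ replicates 1 and 2, -0.024 to 0.573 in the Jag1 group and 0.394 to 0.516 in the Jag1/FICZ group, and for all tested genes it was -0.0337 to 0.0125 in every sample. The 4 LXR-driven genes had medians of 0.706 in Jag1 only, -1.51 and -0.0777 in FICZ replicates 1 and 2, -1.42 to -0.686 in the Jag1 group and -0.786 to -0.643 in the Jag1/FICZ group. By these medians, enzymes of sterol synthesis stood lowest and LXR-driven genes highest in the Jag1 only sample, and LXR-driven genes stood lowest in FICZ replicate 1. Apoe went the other way, with its highest value of the 11 samples in FICZ replicate 1 (2741 normalized counts). By summed normalized counts the 4 genes were lowest in the Jag1 group (2243 to 3055, against 4195 in FICZ replicate 1).

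**Figure D2:**
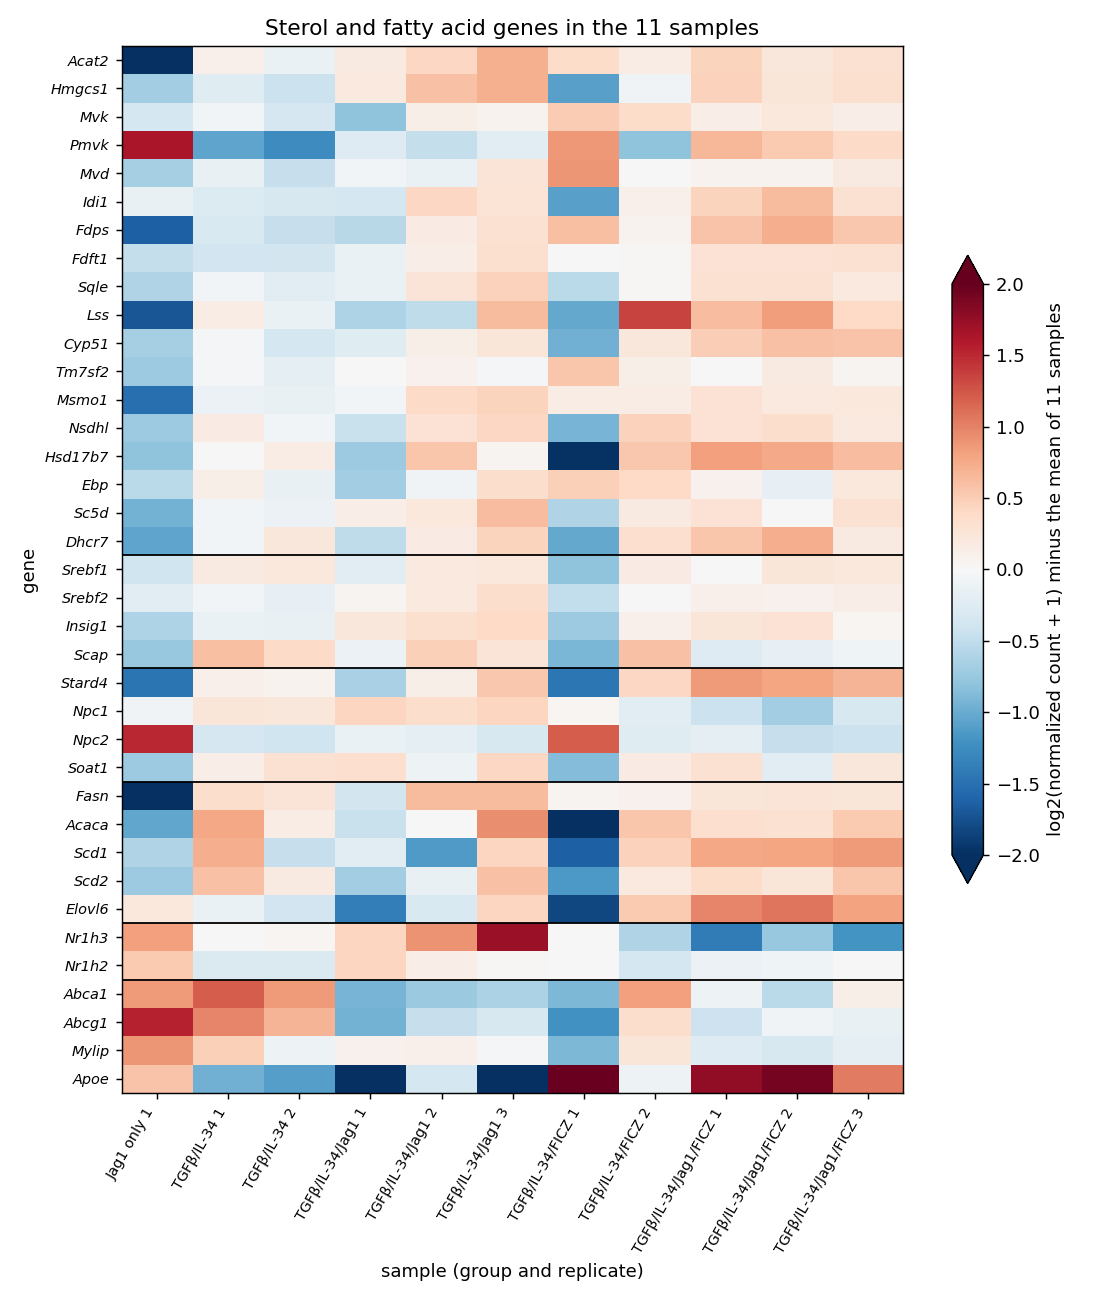
Level of the 37 genes (rows, grouped by role and separated by black lines) in the 11 samples (columns), as log2(normalized count + 1) minus the gene's mean over the 11 samples, with red above and blue below that mean and colours capped at 2 either way. Of the 18 sterol enzymes, Jag1 only holds the lowest value for 10 and FICZ replicate 1 for 5, and Apoe is red in the 3 samples of the Jag1/FICZ group.

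**Figure D3:**
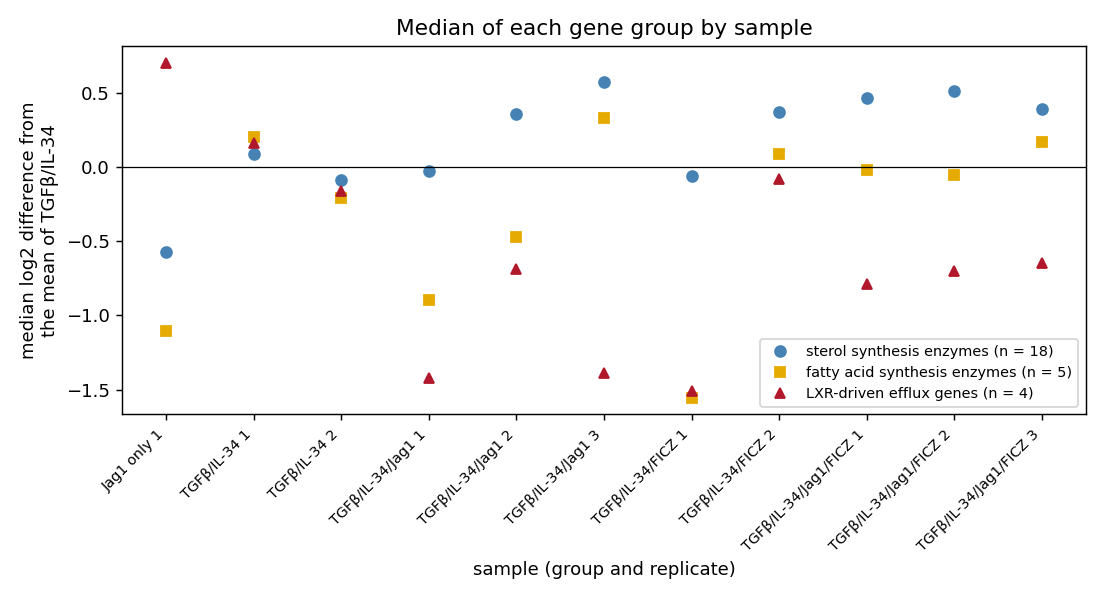
Median log2 difference from the mean of TGFβ/IL-34 (y axis) in each sample (x axis) for 18 sterol synthesis enzymes, 5 fatty acid synthesis enzymes and 4 LXR-driven genes, 1 point per gene group and sample. The LXR-driven genes lie below 0 in all samples of the Jag1 and Jag1/FICZ groups and at 0.706 in Jag1 only.

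To ask what Jag1 did in the presence of TGFβ/IL-34, the Jag1 group was compared with TGFβ/IL-34. Abca1, the cholesterol exporter that loads lipid onto apolipoprotein A-I, was lower with Jag1, and no other of the 37 genes passed the test (1 of 37, a smaller share than the 6.60% of all genes called, which were 2.64% higher and 3.96% lower). Its normalized counts were 542 and 421 in TGFβ/IL-34 and 122, 138 and 150.5 in the Jag1 group. The groups did not overlap, and the difference was -1.80 on the log2 scale (SE 0.43, 95% interval -2.77 to -0.83, limma, adjusted p = 0.0355). Abca1 (ENSMUSG00000015243) lies on the minus strand of chr4:53030787-53159900 in GRCm39.

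Abcg1, the partner exporter that passes cholesterol to high-density lipoprotein, stood at 3868 and 3170.3 normalized counts in TGFβ/IL-34 and at 1026, 1434 and 1579 with Jag1. Every Jag1 sample was below both others, but the difference of -1.40 (SE 0.38) did not pass the threshold (limma, adjusted p = 0.0566). Mylip was at 1223 and 816 without Jag1 and at 935, 941 and 854 with it, so the groups overlapped (log2 difference -0.14, 95% interval -0.80 to 0.53). Apoe was at 357 and 323 without Jag1 and at 160.5, 542 and 109.5 with it, which overlapped too (log2 difference -0.68, 95% interval -2.21 to 0.86). The 4 LXR-driven genes thus had a median of -1.04, with 1 of 4 called lower, beside a median of -0.0041 over all genes tested.

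The genes of the LXR receptors were not lower in these samples. Nr1h3, which encodes LXRα, was near the bottom of the range of counts, at 25.4 and 25.8 in TGFβ/IL-34 and 34.2, 47.9 and 85.6 with Jag1 (log2 difference 1.00, 95% interval -0.11 to 2.11, limma, adjusted p = 0.33). Nr1h2, which encodes the broadly expressed LXRβ, was at 2675 and 2696 without Jag1 and at 4421, 3608 and 3344 with it (log2 difference 0.49, SE 0.17, limma, adjusted p = 0.145). All Jag1 samples lay above the others for both receptors, and neither passed the test.

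On the synthesis side, none of the 18 sterol enzymes passed, and their median was 0.33 with a range of -0.17 to 0.84, 13 of 18 being above 0. Hmgcs1, which commits acetyl-CoA units to the mevalonate route and carries the sterol response element shown above, stood at 3633 and 3213 in TGFβ/IL-34 and at 4939.8, 6448 and 7020.4 with Jag1. All Jag1 samples were higher, with a log2 difference of 0.83 (SE 0.27, limma, adjusted p = 0.114). Of the SREBP genes, Srebf2, the master factor of sterol synthesis, stood at 7787 and 7273 without Jag1 and at 8416, 9282 and 10313 with it (log2 difference 0.31, 95% interval -0.09 to 0.70). Insig1, a target of SREBP and at once its brake, stood at 1460.0 and 1441 without Jag1 and at 1854, 1984 and 2098 with it (log2 difference 0.45, 95% interval -0.06 to 0.95). In both genes the groups did not overlap. Srebf1, the factor of fatty acid synthesis, was at 2515 and 2582 without Jag1 and at 1916, 2552 and 2567 with it, and the groups overlapped (log2 difference -0.13, 95% interval -0.71 to 0.45). The 5 fatty acid enzymes had a median of -0.30, none passed, and the 95% interval reached past a 2-fold change in 4 of them, so a change of that size could not be shown or dismissed for them. None of the 4 transport genes passed, with log2 differences of -0.08 to 0.17. Across the 37 genes, 14 were higher and 2 lower without overlap between the groups, where 46.6% of all genes did not overlap, 23.7% higher and 22.8% lower.

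The count for Jag1 rested on the library that stood apart and on each sample of the comparison. Without FICZ replicate 1, which enters this comparison only through the shared spread, 7 of the 37 genes passed (16.6% of all genes): Hmgcs1, Pmvk, Fdft1, Insig1 and Nr1h2 were higher and Abca1 and Abcg1 lower, with the same log2 differences. Abca1 passed in 10 of 18 alternative settings. Leaving out any 1 of the 5 samples compared left none, and the adjusted p of Abca1 was then 0.0746 to 0.255. Over these groups the summed level of 6 classical monocyte markers was 5869 to 11921 without Jag1 and 605 to 1175 with it, and that of 9 cycling markers was 7528 to 8892 against 3181 to 4845 (5 of 5 and 7 of 9 tested genes lower). Langerhans cell markers summed to 188120 to 188579 without Jag1 and to 337268 to 352257 with it (1 of 8 higher), and macrophage markers to 17640 to 18990 against 17854 to 34239 (4 of 8 higher, 2 lower). Mast cell markers summed to 1918 to 2868 against 1157 to 2439 (4 of 6 tested lower), and stroma markers to 1388 to 2011 against 877 to 1919 (5 of 9 tested higher, 1 lower). Adipocyte markers summed to 3863 to 5190 without Jag1 and to 721 to 1201 with it (1 of 3 tested higher, 1 lower). Elsewhere they summed to 2880 to 3795 in the FICZ group, 1465 to 1709 in the Jag1/FICZ group and 4685 in Jag1 only. The part of all these cells in the lower Abca1 level was not tested, and in bulk RNA fewer cells of a type and less RNA per cell cannot be told apart.

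Among related genes outside the 37, 1 of 15 tested genes of other lipid synthesis was higher with Jag1, Lpin1, which encodes a phosphatidate phosphatase (log2 difference 1.58), and none was lower. Of 17 tested genes of other sterol handling, 2 were lower and none higher. These were Gramd1b, a carrier of cholesterol from the plasma membrane (-1.37), and Pltp, a phospholipid transfer protein that LXR is known to induce (-1.72).

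**Figure D4:**
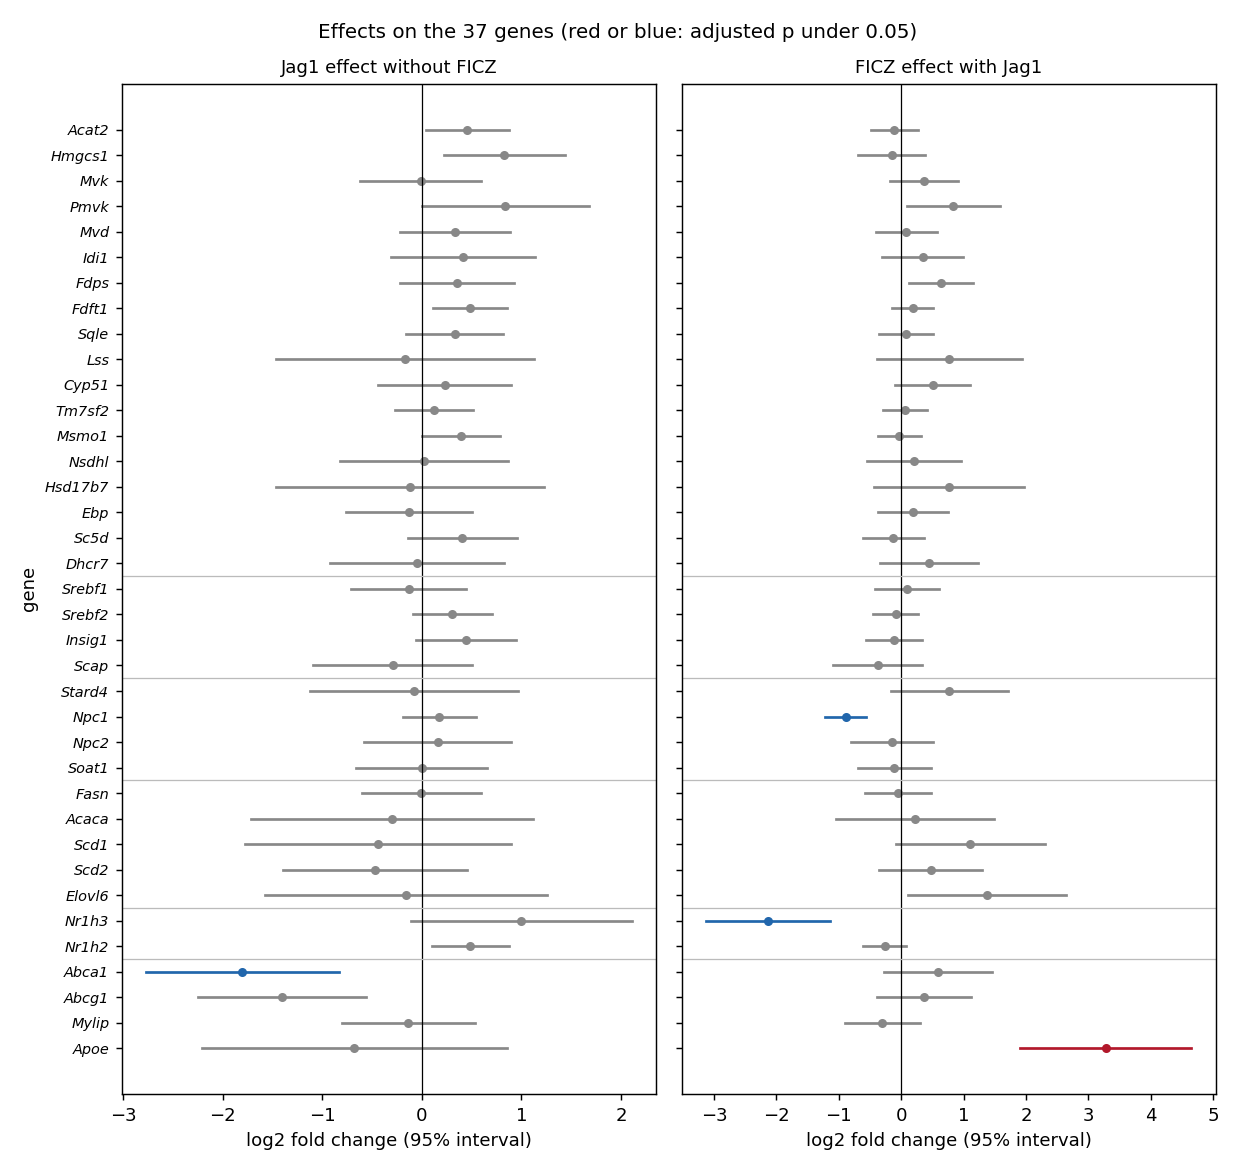
Log2 fold change (points) with 95% interval (lines) of the 37 genes for the effect of Jag1 without FICZ (left) and of FICZ with Jag1 (right), from limma over all 11 samples, with genes that passed in red (higher) or blue (lower) and the others in grey. Abca1 passed on the left, and Npc1, Nr1h3 and Apoe on the right.

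FICZ was next compared in the presence of Jag1, where the groups hold 3 samples each. Apoe rose, and Npc1 and Nr1h3 fell (3 of 37 genes, a smaller share than the 17.7% of all genes called, which were 10.9% higher and 6.71% lower). Apoe was at 160.5, 542 and 109.5 normalized counts in the Jag1 group and at 2368, 2609.5 and 1428 with FICZ added. The groups did not overlap and the log2 difference was 3.28 (SE 0.62, 95% interval 1.91 to 4.65, limma, adjusted p = 0.00461). Apoe (ENSMUSG00000002985) is on the minus strand of chr7:19430034-19434947.

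Npc1 encodes the membrane protein that lets cholesterol out of lysosomes. Its normalized counts were 2757, 2611 and 2766 without FICZ and 1522, 1258 and 1645 with it. The values within each group lay close together and the groups were far from overlapping (log2 difference -0.89, SE 0.15, limma, adjusted p = 0.00229). Npc2, the soluble lysosomal partner that hands cholesterol to Npc1, did not pass (log2 difference -0.15, 95% interval -0.81 to 0.51). Exons of Npc1 overlap those of Rmc1 on the other strand by 1086 bases, and the strandedness of the libraries is not given in the sources used here. Rmc1 stood at 369.9 to 938 over the 11 samples, below the values of Npc1.

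Nr1h3 stood at 34.2, 47.9 and 85.6 normalized counts without FICZ and at 8.91, 14.5 and 10.4 with it, so that it was low in all samples and lowest with FICZ (log2 difference -2.14, SE 0.45, limma, adjusted p = 0.00787). Nr1h2 was at 4421, 3608 and 3344 without FICZ and at 3022, 3100.1 and 3299 with it and did not pass (log2 difference -0.26, 95% interval -0.61 to 0.08). Nr1h3 shares 256 exon bases on the other strand with Acp2, which stood at 691 to 1554 in these samples and so far above it.

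The other LXR-driven genes did not follow Apoe past the threshold. Abca1 was at 122, 138 and 150.5 without FICZ and at 218, 161 and 252 with it, all higher (log2 difference 0.59, SE 0.39, limma, adjusted p = 0.358). Abcg1 overlapped between 1026, 1434 and 1579 and 1488, 1888 and 1782 (log2 difference 0.37, 95% interval -0.39 to 1.12). Mylip was at 935, 941 and 854 without FICZ and at 736, 703 and 776 with it, all lower (log2 difference -0.30, 95% interval -0.90 to 0.30). Apoe was thus the single LXR-driven gene called here.

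**Figure D5:**
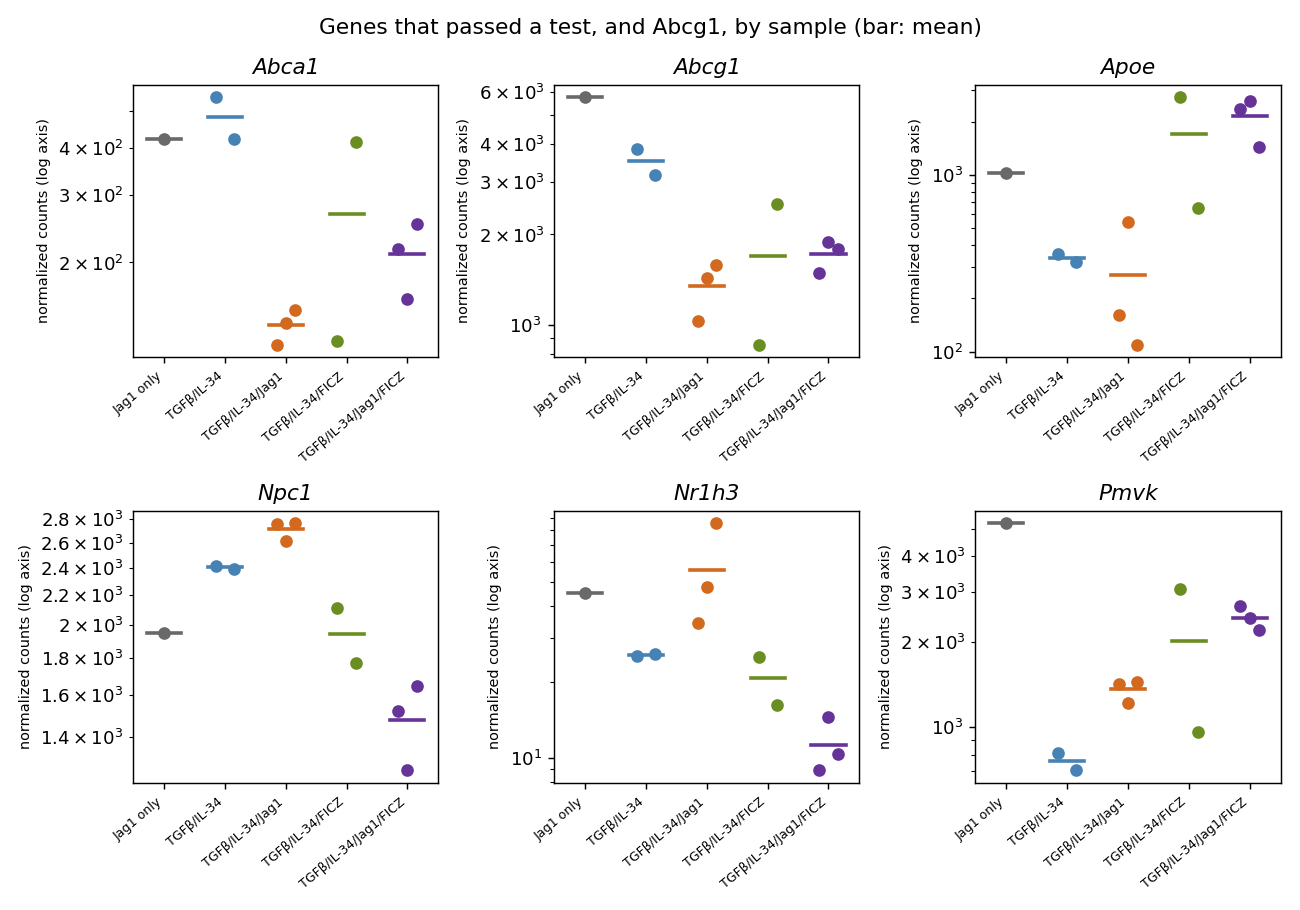
Normalized counts (y axes, log scale) of Abca1, Abcg1, Apoe, Npc1, Nr1h3 and Pmvk in the 5 groups (x axis), 1 point per sample, with a bar at the group mean. Abca1 lies at 122 to 150.5 in the Jag1 group and at 421 to 542 in TGFβ/IL-34, and Npc1 at 1258 to 1645 in the Jag1/FICZ group and at 2611 to 2766 in the Jag1 group.

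None of the 18 sterol enzymes, 4 SREBP genes or 5 fatty acid enzymes passed the test for FICZ with Jag1. The enzymes of sterol synthesis had a median of 0.19 and a range of -0.15 to 0.84, and for 12 of the 18 the 95% interval stayed within a 2-fold change either way. Srebf2 was at 8416, 9282 and 10313 without FICZ and at 8701, 8576 and 8942 with it (log2 difference -0.09, 95% interval -0.45 to 0.27). Insig1 was at 1854, 1984 and 2098 against 1894, 1946 and 1635 (log2 difference -0.12, 95% interval -0.57 to 0.33). Srebf1 was at 1916, 2552 and 2567 against 2238, 2622 and 2586 (log2 difference 0.09, 95% interval -0.43 to 0.61). All 3 overlapped, and their intervals held a 2-fold change in neither direction. Elovl6, which lengthens palmitate, stood at 106, 224 and 374 without FICZ and at 549.5, 585 and 488 with it, the widest gap of a fatty acid enzyme (log2 difference 1.38, SE 0.57, limma, adjusted p = 0.132). Across the 37 genes, 10 were higher and 4 lower without overlap, where 45.1% of all genes did not overlap, 23.6% higher and 21.5% lower.

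The calls of Apoe, Npc1 and Nr1h3 did not depend on the library that stood apart or on any single sample. Without FICZ replicate 1 they passed with adjusted p of 0.00136, 0.000421 and 0.00504 (limma), and 8 of the 37 genes passed in all (31.4% of all genes): Pmvk, Fdps, Cyp51 (the lanosterol demethylase), Stard4 (a cholesterol carrier of the cytosol), Elovl6 and Apoe higher, and Npc1 and Nr1h3 lower. With each sample of the comparison left out in turn, the adjusted p stayed at or under 0.0254 for Apoe, 0.0159 for Npc1 and 0.0365 for Nr1h3. Here the replicate numbers pair the samples, since equal numbers carry the same experiment code, and with only these 6 samples and the replicate as a block 10 of the 37 genes passed (33.3% of all genes). The 7 further genes were Pmvk, Fdps, Cyp51, Stard4, Scd1 (a desaturase of fatty acids), Elovl6 and Abcg1, all higher with FICZ.

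Markers of other cells also differed between these groups. The summed level of 7 granulocyte progenitor markers was 83.5 to 261 in the Jag1 group and 5706 to 8810 with FICZ, with 6 of 7 tested genes higher, though Mpo stayed at 3.42 to 12.2. Cycling markers summed to 3181 to 4845 against 14886 to 15411 (9 of 9 higher), mast cell markers to 1157 to 2439 against 5778 to 10588 (5 of 6 tested higher) and macrophage markers to 17854 to 34239 against 9336 to 13631 (4 of 8 lower). Stroma markers summed to 877 to 1919 against 17040 to 19113 (3 of 9 tested higher), mostly through Thy1, which other cells also carry. Col1a1, which is more particular to stroma, was at 84.1 to 369 against 222 to 1345, and its groups overlapped. Langerhans cell markers summed to 337268 to 352257 against 84916 to 149029 (4 of 8 lower), and classical monocyte markers to 605 to 1175 against 5528 to 6958 (4 of 5 tested higher). The part of these cells in the values of Apoe, Npc1 and Nr1h3 was not tested.

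Related genes outside the 37 moved in both directions with FICZ in the presence of Jag1. In the list of other lipid synthesis 2 of 15 tested genes were higher and 3 lower. The higher ones were Me1, a source of NADPH (1.68), and Acaa2 (0.85), which is in this list although it is a thiolase of fatty acid breakdown. The lower ones were Lpin1 (-1.79), the desaturase Fads1 (-0.81) and the elongase Elovl5 (-0.72). In other sterol handling 3 of 17 were higher, Pltp (3.21), Apoc2, an activator of lipoprotein lipase (3.17), and Gramd1b (1.34). Another 3 were lower, Rxra, the usual partner receptor of LXR (-2.31), Cyp27a1, which makes oxysterols (-0.88), and Lipa, the lysosomal acid lipase (-0.81).

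Without Jag1, FICZ was compared between 2 samples and 2. No gene of the 37 passed (0 by limma, with 0.0229% of all genes called), and 8 had an unadjusted p under 0.05, against 17.4% of all genes. Apoe was at 357 and 323 in TGFβ/IL-34 and at 2741 and 646 with FICZ, both higher (log2 difference 1.97, SE 0.75, limma, adjusted p = 0.285). Abca1 was at 542 and 421 against 124 and 413 (log2 difference -1.07, SE 0.48, limma, adjusted p = 0.285). Both FICZ samples of Abca1 lay below the others, the second by little.

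Abcg1 was at 3868 and 3170.3 without FICZ and at 857 and 2529 with it (log2 difference -1.25, SE 0.42, limma, adjusted p = 0.285). Mylip was at 1223 and 816 against 472 and 1038 and overlapped (log2 difference -0.51, 95% interval -1.24 to 0.22). Among the SREBP genes the 2 FICZ samples lay on either side of the others for Srebf2 (5784 and 8121 against 7787 and 7273) and for Insig1 (962 and 1708 against 1460.0 and 1441). Srebf1 was at 1270.5 and 2485 with FICZ against 2515 and 2582, with the first sample well below the rest. The sterol enzymes had a median of 0.22 and a range of -0.80 to 1.18.

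This comparison turned on which FICZ library was used. Without replicate 1, none of the 37 genes passed (0.00% of all genes). Without replicate 2, 23 of the 37 passed, 6 higher and 17 lower, where 43.9% of all genes passed, so those calls describe the library that stood apart against 2 others. Between TGFβ/IL-34 and the FICZ group, granulocyte progenitor markers summed to 414 to 677 against 2954 to 5132 and mast cell markers to 1918 to 2868 against 6613 to 9247. Stroma markers summed to 1388 to 2011 against 4676 to 12889 and Langerhans cell markers to 188120 to 188579 against 105616 to 107353. Of the 12 stroma markers, 9 were at 0 in each FICZ sample, against 5 and 8 in TGFβ/IL-34. The higher stroma sum thus came from the few others and is no sign that the list as a whole rose. No gene of these 4 lists passed, and their part in the values was not tested.

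For the combined effect, TGFβ/IL-34 served as the reference for the Jag1/FICZ group. Pmvk, the phosphomevalonate kinase of the mevalonate route, rose, and Npc1 fell (2 of 37 genes, a share near the 4.48% of all genes called, which were 3.12% higher and 1.37% lower). Pmvk was at 812 and 704 normalized counts in TGFβ/IL-34 and at 2662, 2415 and 2198 with Jag1 and FICZ. The groups were far apart, with a log2 difference of 1.68 (SE 0.38, 95% interval 0.84 to 2.51, limma, adjusted p = 0.0353). Pmvk (ENSMUSG00000027952) lies on the plus strand of chr3:89361758-89376323. It stood between these groups with Jag1 alone, at 1413, 1216 and 1443, and above all of them in the Jag1 only sample, at 5228.

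Npc1 stood at 2416 and 2392 in TGFβ/IL-34 and at 1522, 1258 and 1645 with Jag1 and FICZ, again without overlap (log2 difference -0.71, SE 0.16, limma, adjusted p = 0.0393). Abca1 was at 542 and 421 against 218, 161 and 252 (log2 difference -1.21, SE 0.43, limma, adjusted p = 0.169), and Abcg1 at 3868 and 3170.3 against 1488, 1888 and 1782 (log2 difference -1.03, SE 0.38, limma, adjusted p = 0.177). Apoe was at 357 and 323 against 2368, 2609.5 and 1428 (log2 difference 2.60, SE 0.69, limma, adjusted p = 0.0634). In these 3 genes the groups did not overlap, and the threshold was not passed.

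All 18 sterol enzymes had a log2 difference above 0, from 0.06 to 1.68 with a median of 0.41, beside a median of 0.0053 over all genes tested, but only Pmvk passed. Fdft1, which joins farnesyl groups into squalene, stood at 982 and 996 in TGFβ/IL-34 and at 1562, 1577 and 1578 with Jag1 and FICZ (log2 difference 0.67, SE 0.17, limma, adjusted p = 0.0506). Exons of Fdft1 overlap the opposite strand of Ctsb, a gene of higher level (7286 to 17750.3), by 1184 bases. Fdps, which makes farnesyl diphosphate, stood at 2661 and 2399 against 4918, 5453 and 4783 (log2 difference 1.00, SE 0.26, limma, adjusted p = 0.0581). In both genes the groups were clear of each other. Across all 37 genes 30 had groups that did not overlap, 23 higher and 7 lower, against 54.2% of all genes, 28.8% higher and 25.5% lower.

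The SREBP genes showed no call in the combined comparison. Srebf2 was at 7787 and 7273 against 8701, 8576 and 8942 (log2 difference 0.22, 95% interval -0.18 to 0.61), Insig1 at 1460.0 and 1441 against 1894, 1946 and 1635 (0.33, 95% interval -0.17 to 0.83) and Srebf1 at 2515 and 2582 against 2238, 2622 and 2586 (-0.04, 95% interval -0.62 to 0.54). Mylip, at 1223 and 816 against 736, 703 and 776, had a log2 difference of -0.44 (95% interval -1.11 to 0.23).

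Without FICZ replicate 1, 11 of the 37 genes passed for the combined effect (13.0% of all genes). Hmgcs1, Pmvk, Idi1 (an isomerase of the isoprenoid step), Fdps, Fdft1 and Cyp51 of sterol synthesis and Apoe were higher, and Scap (the escort of SREBP), Npc1, Abca1 and Abcg1 were lower. Leaving out any 1 of the 5 samples compared left none, with an adjusted p of 0.0786 to 0.239 for Pmvk and 0.0652 to 0.295 for Npc1. Of the related genes, 1 of 17 tested genes of other sterol handling was higher, Pltp (log2 difference 1.50), and 1 lower, Lipa (-1.18), and none of 15 of other lipid synthesis passed. Between these groups granulocyte progenitor markers summed to 414 to 677 against 5706 to 8810, cycling markers to 7528 to 8892 against 14886 to 15411 and macrophage markers to 17640 to 18990 against 9336 to 13631 (4 of 7 higher, 3 of 9 higher and 2 of 8 lower). Stroma markers summed to 1388 to 2011 against 17040 to 19113 (9 of 9 tested higher), mast cell markers to 1918 to 2868 against 5778 to 10588 (3 of 6 tested higher) and Langerhans cell markers to 188120 to 188579 against 84916 to 149029 (none of 8 called). The part of these cells in the values of Pmvk and Npc1 was not tested.

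Jag1 was also compared in the presence of FICZ, and the difference between the effects was tested as an interaction. No gene of the 37 passed for Jag1 with FICZ (0 by limma, against 2.02% of all genes), and 11 had an unadjusted p under 0.05, against 23.2% of all genes. The interaction gave 0 as well (against 1.39% of all genes), with 5 genes at an unadjusted p under 0.05, against 18.8%. Abcg1 had an interaction of 1.62 (SE 0.54, limma, adjusted p = 0.171) and Abca1 of 1.67 (SE 0.62, limma, adjusted p = 0.206). The log2 difference with Jag1 was -1.40 without FICZ and 0.22 with it for Abcg1, and -1.80 and -0.13 for Abca1. With FICZ, Abcg1 was at 857 and 2529 without Jag1 and at 1488, 1888 and 1782 with it, so the Jag1 samples fell between the other samples. Hmgcs1 was at 2037 and 4115 without Jag1 and at 5930.3, 5125 and 5354 with it, all higher, which did not pass (log2 difference 0.91, SE 0.27, limma, adjusted p = 0.111). Without FICZ replicate 1 only Pmvk passed for Jag1 with FICZ (1 of 37, 1.71% of all genes) and none for the interaction (1.16% of all genes). Without replicate 2 instead, 25 of the 37 genes passed for Jag1 with FICZ (44.6% of all genes) and 23 for the interaction (42.1% of all genes).

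Last, the Jag1 only sample shows these genes without TGFβ and IL-34, beside the 3 samples of the Jag1 group. With 1 sample there is no test, and the values are a description. Jag1 only lay below the range of the 3 samples in 24 of the 37 genes (36.7% of all genes) and above it in 7 (37.9% of all genes). Of the 18 sterol enzymes 14 lay below and 1 above. Against the mean of the 3 samples, 7 of the 18 were more than 2-fold lower, where 13.2% of all genes were. All 4 SREBP genes lay below the range, whereas the 4 LXR-driven genes all lay above it. Of those 4, 3 were more than 2-fold above the mean, where 16.3% of all genes were. Jag1 only shares its experiment code with replicate 1 of the Jag1 group alone. The median of the sterol enzymes against TGFβ/IL-34 was -0.024 in that replicate and 0.356 and 0.573 in the others, so the mean mixes experiments.

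Acat2, which joins acetyl-CoA units, stood at 292 normalized counts in Jag1 only and at 2280.1, 2694 and 3294 in the Jag1 group, a log2 difference of -3.22. Its exons share 322 bases with Tcp1 on the other strand. Fasn, the fatty acid synthase, stood at 892 against 3644, 7252 and 7307 (log2 difference -2.69). These were the lowest values of either gene in any of the 11 samples. Among the SREBP genes, Srebf2 was at 6998 against 8416, 9282 and 10313, Insig1 at 1039.7 against 1854, 1984 and 2098, and Srebf1 at 1679.9 against 1916, 2552 and 2567.

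On the export side, Abcg1 stood at 5744 in Jag1 only against 1026, 1434 and 1579, and Abca1 at 422 against 122, 138 and 150.5. Apoe was at 1025 against 160.5, 542 and 109.5, and Mylip at 1619.9 against 935, 941 and 854. The Abcg1 and Mylip values were the highest of all 11 samples, while those of Abca1 and Apoe were not. Pmvk went against the other sterol enzymes, at 5228 against 1413, 1216 and 1443, and Npc2 was at 22244 against 7209.6, 6837 and 6327. Both were the highest of the 11 samples. Markers of Langerhans cells summed to 52016 in Jag1 only and to 337268 to 352257 in the Jag1 group, classical monocyte markers to 8764 against 605 to 1175, and their part in these values was not tested.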

How the data were processed

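RNA of 11 bulk samples was sequenced. The authors assigned reads to GRCm39 transcripts with salmon, collapsed them per gene with tximport and divided them by DESeq2 factors, and their deposited table holds the resulting normalized signal per gene (normalized counts here). Tool versions are not given in the sources used here. Low values were whole multiples of 1 read (within 0.1 reads) in 52.3% to 58.2% of cases over all genes, so no count model was run. Depth was estimated at 20.6 to 24.2 M reads per sample, and counting error weighs most on genes of a few reads, such as Nr1h3. All columns were mapped to samples.

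The 13095 genes that reached 10 in 2 or more samples were fitted as log2(value + 1) with limma 3.58.1 in R 4.3.3 (lmFit, contrasts.fit, eBayes with a trend). The model had 1 mean for each of the 5 groups, no covariate and 6 residual degrees of freedom. Adjustment was by Benjamini-Hochberg over all genes of a contrast, from two-sided p-values, with a threshold of 0.05, and intervals cover 95%. Fold changes on the log2(value + 1) scale understate the change of low genes. The code was tested on simulated data. Replicates of a group carry different experiment codes, but nothing says that they came from separate mice. The p-values set a group difference against the spread between these samples, pooled over the 5 groups, and this spread may be technical. Replicate numbers were checked for pairing: in the Jag1 and Jag1/FICZ groups equal numbers share an experiment code, and their deviations from the group means had correlations of 0.153, 0.122 and 0.166. Equal numbers also share a code between the FICZ and Jag1/FICZ groups, where the correlations were 0.0591 and 0.0578. Against TGFβ/IL-34 no correlation was over 0.0475. Equal numbers there carry different codes in the sample descriptions, so these correlations cannot show whether experiments were paired. FICZ replicate 1 and Jag1/FICZ replicate 1 carry another flow cell code than the rest.

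Alternatives were quantile normalization, TMM factors, pseudocounts of 0.5 and 4, no filter, array weights, blocks for replicate, experiment and flow cell, a fit to the contrasted groups alone, and each sample left out. Leaving out FICZ replicate 1 from all contrasts, removing the trend with transcript length (loess, span 0.5), the experiment codes of a second deposited table and the replicate block within 2 groups were added after the data were seen. Members and lists were chosen with earlier results of these data known. Values in every sample were given by rule for Srebf1, Srebf2, Insig1, Abca1, Abcg1, Mylip, Apoe and the members that passed a test, and for related genes up to 3 per direction that passed. Hmgcs1, Fdft1, Fdps, Elovl6, Acat2, Fasn, Npc2, Nr1h2 and Acaca were named after their values were seen.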

Additional observations from a re-analysis of the deposited data

Results flagged for a closer look

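In 3 cases every sample of a group moved one way under a contrast and every sample of the other group the opposite way. Npc1 was higher with Jag1 in all samples without FICZ and lower in all samples with FICZ, and the interaction was -0.57 (limma, adjusted p = 0.233). Nr1h3 showed the same pattern of Jag1, with an interaction of -1.81 (limma, adjusted p = 0.223). Abca1 was lower with FICZ in all samples without Jag1 and higher in all samples with Jag1, with an interaction of 1.67 (limma, adjusted p = 0.206). None of these 3 interactions passed the threshold, and each rests on 2 FICZ samples without Jag1. Among all genes, groups did not overlap in 46.6% (23.7% higher) for Jag1 without FICZ and in 35.8% (16.2% lower) for Jag1 with FICZ. For FICZ the shares were 45.7% (23.1% lower) without Jag1 and 45.1% (23.6% higher) with Jag1. How many of all genes switch direction in this manner was not counted, so these 3 cases are not shown to stand out.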

How the results depend on the processing

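The counts of sterol and fatty acid genes that passed were 1 for Jag1 without FICZ, 2 for both agents, 3 for FICZ with Jag1 and 0 for the other 3 contrasts. The share of all genes that passed stands in brackets. For Jag1 without FICZ the count became 2 under quantile normalization (6.61%), the flow cell block (7.42%), the second set of experiment codes (7.92%) and removal of the length trend (8.26%), 4 in a fit to the contrasted groups alone (10.5%), 11 with array weights (20.1%) and 0 without the filter (4.40%). It was also 0 with the replicate block (5.57%), which moved no other count by over 1.5 times in the fit over all samples. Equal replicate numbers of the Jag1 and TGFβ/IL-34 groups carry different experiment codes in the sample descriptions, so this block does not stand for experiments there. For both agents the count was 4 under quantile normalization (5.44%), 19 with array weights (27.2%), 19 in a fit to the contrasted groups alone (24.2%), 5 with the length trend removed (5.85%) and 1 with the second set of experiment codes (4.16%). For FICZ with Jag1 it was 11 with array weights (31.5%), 7 in a fit to its 2 groups (28.4%) and 10 when that fit had a replicate block (33.3%). Leaving out single replicates gave 0 to 7 for Jag1 without FICZ, 0 to 23 for FICZ without Jag1, 0 to 11 for both agents, 3 to 8 for FICZ with Jag1, 0 to 25 for Jag1 with FICZ and 0 to 23 for the interaction. The highest values came from leaving out a FICZ library (43.9%, 44.6% and 42.1% of all genes without FICZ replicate 2 in the 3 contrasts that reach 23 or more), and the lone sample is then assumed to vary like the other groups. The cause of these shifts was not tested. No gene that had passed changed its sign. The median 95% interval of the 37 genes reached 0.60 (FICZ with Jag1) to 0.94 (interaction) to either side on the log2 scale, which limits what a gene that did not pass can show.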
